A study of Mus musculus with 12 samples.

Results

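The genes described here are 48 genes of the cell division cycle, chosen by name for their known roles. They comprise 14 replication genes, 9 G1/S genes (cyclins, kinases and E2f1, which act as a cell leaves G1), 20 mitotic genes and 5 genes of cyclin-dependent kinase inhibitors. All 48 were found on the array, where 64 of 55681 probes carried them, out of 21154 named genes in all. Each gene was counted once, by the probe with the highest mean signal over the 12 arrays.

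A cell that is to divide first accumulates D-type cyclins, which switch on Cdk4 and Cdk6 in response to growth factors, and then cyclin E, which acts with Cdk2. These kinases release E2F transcription factors from retinoblastoma proteins, and E2F switches on the genes of the replication machinery. The mitotic genes are switched on later, in G2, and are held down in resting cells by a complex (DREAM) that binds the CHR element of their promoters. Replication and mitotic messages are therefore abundant in cultures of dividing progenitors and scarce in resting cells. In bulk RNA, fewer dividing cells and less message per dividing cell cannot be told apart.

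The RNA was that of mouse neural progenitor cells (NPCs), made by differentiation in culture and grown with EGF and bFGF. Retroviral vectors delivered EGFP (the control), Mkl1 or Srf in the overexpression experiment, and hairpins against EGFP (shEGFP, the control) or Actb (shActb_1 and shActb_2) in the knockdown experiment. Srf is a transcription factor that binds CArG boxes, Mkl1 is its actin-regulated cofactor, and Actb encodes β-actin. The transgenes held open reading frames alone, and all infected cells were selected with puromycin. The study names NSEB5-2C or N31 as its NPCs for molecular analyses, and which was hybridized is not given in the sources used here. Each of the 6 groups had 2 arrays, and the study calls its array duplicates for the Actb knockdown technical, so the tests below weigh a difference by the scatter of arrays, which leaves out variation between cultures.

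Values are log2 levels, the log2 of the signal minus the array's 75th percentile, and differences between groups are log2 fold changes with their standard error (SE) and a Benjamini-Hochberg adjusted p from limma. Of the probes on each array, 59.3% to 72.5% were well above background, and duplicate arrays correlated at r = 0.993 to 0.998. Actb fell by 0.53 (SE 0.05, adjusted p = 0.00128) with shActb_1 and by 0.65 (SE 0.05, adjusted p = 0.000197) with shActb_2. Both probes of Srf were lower on the arrays labelled Srf than with EGFP, by -2.46 (SE 0.06, adjusted p = 2.55e-06) and -1.40 (SE 0.13, adjusted p = 0.000266). This goes against the label only if the probes read the transgene. Whether they lie within the reading frame it carried is not given in the sources used here. Against their controls, both Srf probes were higher with Mkl1 (0.71 and 1.18), shActb_1 (0.90 and 0.60) and shActb_2 (0.97 and 0.75). The study reports a rise of Mkl1-dependent Srf targets with Srf overexpression. Mkl1 (listed as Mrtfa) differed by 0.20 (SE 0.08, adjusted p = 0.12) and 0.17 (SE 0.11, adjusted p = 0.313) on the arrays labelled Mkl1. EGFP, Mkl1 and Srf were hybridized on slide 1, shEGFP and shActb_1 on slide 2, and shActb_2 alone on slide 3, so that this hairpin and its slide cannot be told apart.

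Of 12 NPC markers, 10 were well above background on all 12 arrays, with Vim and Nes bright, while Olig2 passed on 1 array and Hes5 on 8. Markers of other cell types were also detected, 6 of 7 mesenchymal, 6 of 8 neuronal, 3 of 5 astrocyte, 5 of 5 oligodendrocyte and 3 of 5 pluripotent cell genes on every array. The log2 of the summed mesenchymal signal ranged from 7.39 to 7.40 with EGFP, 6.54 to 6.59 on the arrays labelled Srf, 6.64 to 6.91 with Mkl1, 7.05 to 7.14 with shEGFP, 6.69 to 6.83 with shActb_1 and 6.34 to 6.39 with shActb_2. This sum was lower in all 4 treated groups than in their controls. On the arrays labelled Srf, however, the bright collagen genes Col1a2 (-1.10) and Col3a1 (-0.84) fell, Thy1 (1.49) rose, and Lum was at least 17.3-fold higher than with EGFP, where it was not well above background. Lum entered the test only through the arrays labelled Srf and so had to be higher there. The astrocyte sum ranged from 6.07 to 6.38 with EGFP and 5.06 to 5.17 on the arrays labelled Srf, was 5.72 to 5.84 with Mkl1, and was 5.27 to 5.31 with shActb_1 and 5.85 to 5.93 with shActb_2, beside 5.68 to 5.69 with shEGFP. Such sums follow the brightest genes and can differ in sign from the list's median. The astrocyte list with shActb_2 had 0 of 4 genes higher and 2 lower, with a median of -0.23. The NPC sum was higher with shActb_2 (8.52 on both arrays) than with shEGFP (7.99 to 8.01). With shActb_2, 4 of 11 NPC genes rose (36.4%), 1 fell (9.09%) and the median was -0.11. With shActb_1 (sum 8.10 to 8.12), 0 of 11 rose, 4 fell (36.4%) and the median was -0.31. With Mkl1 (8.34 to 8.40, beside 8.13 to 8.22 with EGFP), 2 of 10 rose (20%), 4 fell (40%) and the median was -0.04. On the arrays labelled Srf (8.02 to 8.07), 4 of 10 rose (40%), 1 fell (10%) and the median was 0.22. The neuronal sum was higher with Mkl1 (4.13 to 4.22) than with EGFP (3.85 to 3.88), while 1 of 7 genes rose (Nefl, 2.84), 3 fell and the median was -0.67. It was lower with shActb_1 (3.47 to 3.53) than with shEGFP (3.77 to 3.96), while 2 of 8 genes rose and 2 fell. The pluripotent sum ranged from 0.01 to 0.22 with EGFP, from 1.57 to 1.78 on the arrays labelled Srf and from -0.28 to 0.09 on the other 8 arrays. Of its genes, Esrrb (2.53) and Dppa5a (0.46) rose on the arrays labelled Srf, and Nanog, Pou5f1 and Zfp42 did not pass. Pou5f1 and Zfp42 were not well above background on every array. Beside these marker counts, all genes gave 17.4% higher and 16.5% lower on the arrays labelled Srf, and 17.7% and 11.3% with Mkl1. They gave 7.78% and 6.18% with shActb_1, and 28.1% and 16.3% with shActb_2. The part of the marker shifts in the results below was not tested.

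Promoter sequences are shown for 5 members on which the results turn, because the regulation of this gene family is written in short promoter elements. They come from RefSeq (GRCm38.p6), run 5′ to 3′ on the gene's strand from 250 bases before to 50 bases after the annotated start, and 38 of 48 members had at least 1 such window. Capitals mark matches, on either strand, to the CHR (TTTGAA or TTCGAA), to E2F sites (TTTCCCGC, TTTGGCGC, TTTCGCGC or TTTGCCGC) and to the CCAAT box (CCAAT); the CArG box was searched as well, and a match to it that begins with CCAAT would count under both. Plk1, Ccnb1 and Cdc20 are mitotic genes, Cdc6 loads the replicative helicase, and Ccne1 is cyclin E1.
Plk1, chr7:122159185-122159484, plus strand: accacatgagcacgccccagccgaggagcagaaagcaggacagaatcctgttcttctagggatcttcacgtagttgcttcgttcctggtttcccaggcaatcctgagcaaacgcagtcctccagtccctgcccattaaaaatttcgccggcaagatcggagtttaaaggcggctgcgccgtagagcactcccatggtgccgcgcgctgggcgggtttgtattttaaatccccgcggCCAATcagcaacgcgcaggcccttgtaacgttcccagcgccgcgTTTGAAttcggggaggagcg
Ccnb1, chr13:100786437-100786736, minus strand: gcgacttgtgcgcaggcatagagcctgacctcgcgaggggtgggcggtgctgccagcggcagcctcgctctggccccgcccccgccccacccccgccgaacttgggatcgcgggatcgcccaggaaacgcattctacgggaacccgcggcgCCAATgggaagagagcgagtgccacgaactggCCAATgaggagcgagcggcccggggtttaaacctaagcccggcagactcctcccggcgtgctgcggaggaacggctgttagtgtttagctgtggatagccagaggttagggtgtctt
Cdc20, chr4:118437294-118437593, minus strand: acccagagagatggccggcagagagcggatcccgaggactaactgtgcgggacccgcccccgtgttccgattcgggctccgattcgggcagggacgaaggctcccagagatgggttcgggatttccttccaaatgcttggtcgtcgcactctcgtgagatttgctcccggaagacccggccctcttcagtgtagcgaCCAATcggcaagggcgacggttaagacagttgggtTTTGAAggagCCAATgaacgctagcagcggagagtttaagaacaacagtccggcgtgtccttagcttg
Cdc6, chr11:98907901-98908200, plus strand: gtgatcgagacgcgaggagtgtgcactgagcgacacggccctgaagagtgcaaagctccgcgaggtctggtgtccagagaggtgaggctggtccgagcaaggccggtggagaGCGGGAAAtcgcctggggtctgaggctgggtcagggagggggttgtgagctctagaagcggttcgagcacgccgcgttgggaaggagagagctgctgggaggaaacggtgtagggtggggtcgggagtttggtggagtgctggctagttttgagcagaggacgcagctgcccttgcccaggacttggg
Ccne1, chr7:38107441-38107740, minus strand: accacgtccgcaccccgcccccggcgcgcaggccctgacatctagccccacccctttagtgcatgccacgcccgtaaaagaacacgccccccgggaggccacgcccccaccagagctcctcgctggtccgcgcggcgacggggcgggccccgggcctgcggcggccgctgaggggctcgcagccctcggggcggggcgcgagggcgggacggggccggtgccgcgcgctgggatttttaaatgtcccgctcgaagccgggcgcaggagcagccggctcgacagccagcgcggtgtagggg

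The Plk1 window held a CHR that began at base 31 after the start and a CCAAT box at base -14. In Cdc20 a CHR began at base -18, between CCAAT boxes at -53 and -8. Ccnb1 carried CCAAT boxes at -99 and -67, and the Cdc6 window held 1 E2F site, at -138 and read on the opposite strand. None of the letters searched was present in the Ccne1 window. Across the lists, 16 of 18 windows of mitotic genes (88.9%) held a CHR, against 19.2% of all 32851 promoter windows, and 16 of 18 (88.9%) held a CCAAT box against 37.4%. An E2F site stood in 6 of 12 windows of replication genes (50%) and in 1 of 18 of mitotic genes (5.56%), against 2.26% of all windows. A CArG box was found in 1 of 43 member windows (2.33%), against 1.63% of all. The lists were drawn up from genes with known roles in the cycle, so these shares describe them and test nothing.

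The first question was how many of the genes moved in each comparison. On the arrays labelled Srf, 45 genes could be tested against EGFP, of which 3 rose and 15 fell, beside 17.4% of all 15695 named genes tested that rose and 16.5% that fell. The median change of the members was -0.17, against -0.01 for all named genes. With Mkl1, 7 of 45 rose and 1 fell (17.7% and 11.3% of all genes), with a median of 0.05 against 0.02. The members that fell on the arrays labelled Srf were 33.3% of those tested, above the share of all genes, and those that rose with Mkl1 were 15.6%, near the share of all genes. With quantile normalization the split changed to 4 higher and 10 lower for Srf and to 4 higher and 4 lower for Mkl1. Fitted on the compared arrays only, 0 rose and 1 fell for Srf, and 0 rose and 0 fell for Mkl1. With no filter on dim probes, 1 rose and 4 fell for Srf, and 4 rose and 1 fell for Mkl1. The share of all genes was not computed under these settings.

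For the hairpins, 47 genes were tested against shEGFP. With shActb_1, 3 rose and 2 fell, beside 7.78% and 6.18% of all genes, with a median of 0.09 against 0.02 for all genes. With shActb_2, 22 rose and 5 fell, beside 28.1% and 16.3%, with a median of 0.19 against 0.07. Quantile normalization gave 2 higher and 2 lower with shActb_1 and 13 higher and 11 lower with shActb_2, where Rrm1, Gins2, E2f1, Ccnd2, Aurka, Top2a, Birc5, Kif20a and Kif23 no longer passed as higher, and the normexp background correction gave 5 higher and 2 lower with shActb_1. Most changes were small: past a 2-fold change as well were 1 gene on the arrays labelled Srf (7.01% of all genes), 0 with Mkl1 (3.84%), 0 with shActb_1 (2.4%) and 2 with shActb_2 (5.76%). Cdkn1c was not well above background on any array and was not tested. The genes Mcm2, Mcm5, Mcm6, Mcm7, Pcna, Cdt1, Cdk4, Cdk6, Cdk1, Kif11 and Cdkn1a changed in none of the 4 comparisons by their brightest probe. A dimmer probe of Cdk4 was higher with shActb_2 (0.33, adjusted p = 0.0315). A dimmer probe of Cdk1, which followed the slide as described later, was lower on the arrays labelled Srf (-0.48, adjusted p = 0.0439) and with shActb_2 (-2.50, adjusted p = 6.38e-05).

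**Figure D1:**
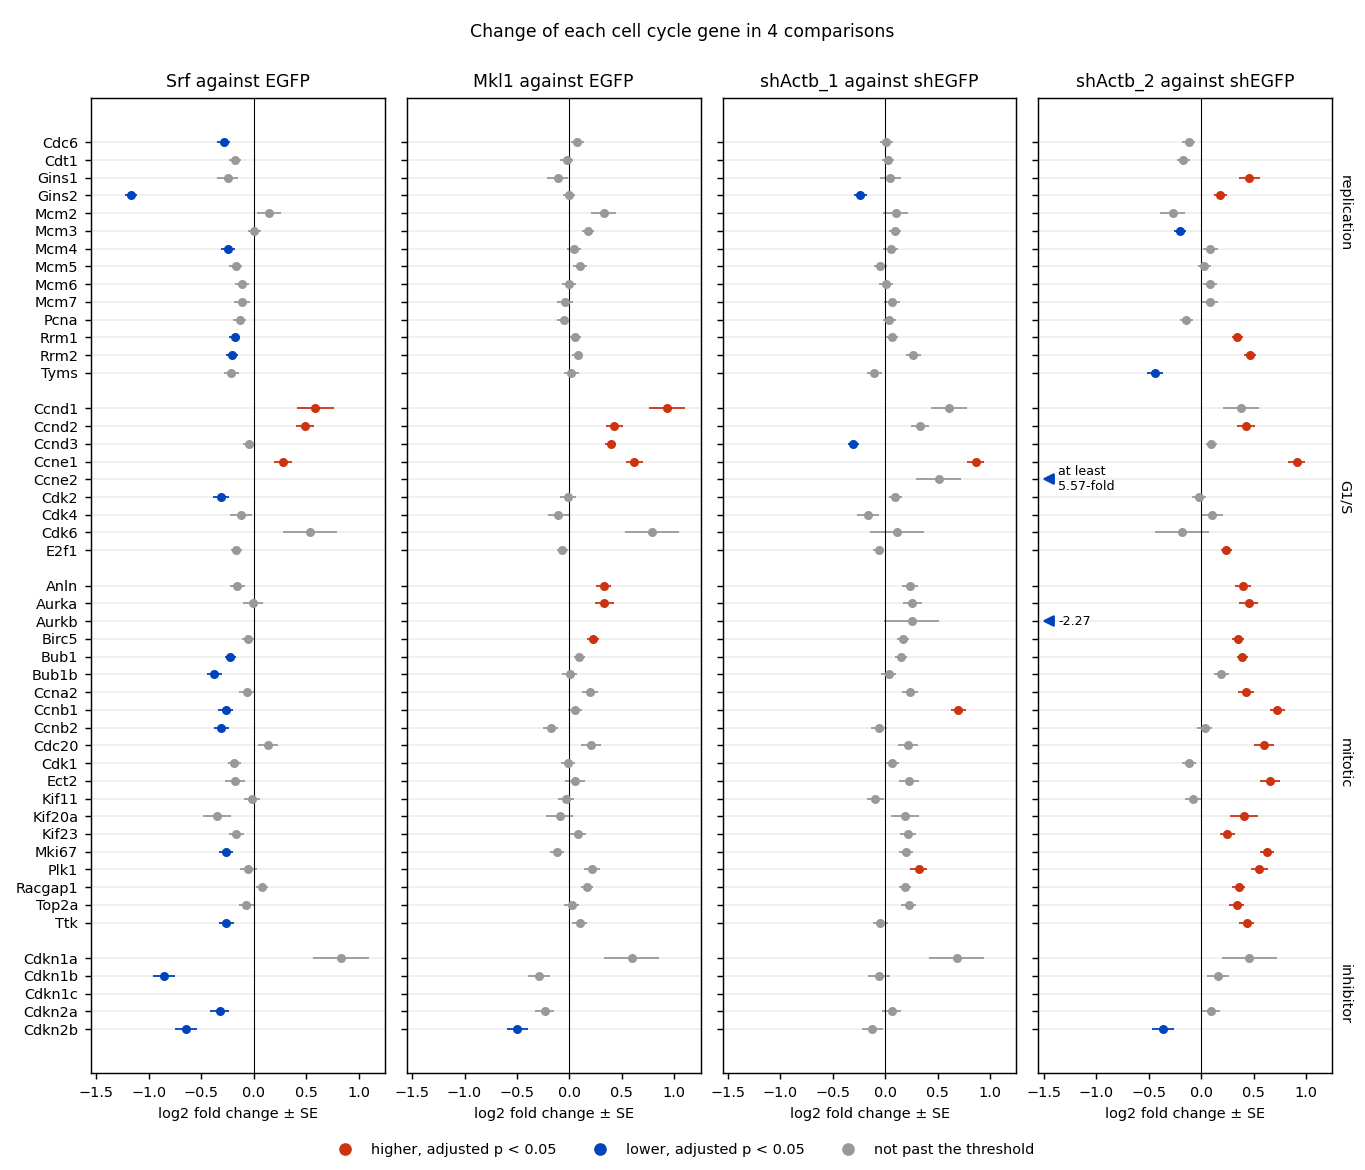
Log2 fold change (x axis, with SE bars) of each cell cycle gene's brightest probe in the 4 comparisons, with 2 arrays per group and the genes ordered by list. Red and blue points passed an adjusted p of 0.05 as higher and lower. The mitotic genes lie mostly left of 0 for the arrays labelled Srf and mostly right of 0 with shActb_2, and arrowheads mark Ccne2 (at least 5.57-fold lower) and Aurkb (-2.27), which lie off the axis.

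These counts rest on few arrays, and they moved when 1 was left out. The share of all genes was not computed with an array left out. For the arrays labelled Srf, 6 and 3 genes fell without replicates 1 and 2 of Srf, and 10 and 13 without replicates 1 and 2 of EGFP, while 1 rose in every case but the last, where 7 did. For Mkl1, 5 and 2 rose without replicates 1 and 2 of Mkl1, and 7 and 12 without those of EGFP. With shActb_1, 2 rose whichever array was left out. With shActb_2, 15 to 19 rose and 3 fell. The genes that passed whichever array was left out were Gins2, Ccnd2, Cdkn2b and Cdkn1b on the arrays labelled Srf, Ccne1 and Ccnd3 with Mkl1, Ccne1 and Ccnb1 with shActb_1, and 18 of 27 with shActb_2.

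Of the replication genes, 5 of 14 fell on the arrays labelled Srf (35.7%, beside 16.5% of all genes), 12 of 14 had a negative change, and the list's median was -0.18. The largest decrease on these arrays was that of Gins2 (NM_178856), a subunit of the GINS complex that joins the MCM ring to form the active helicase. Gins2 read 3.04 and 3.11 with EGFP, 3.05 and 3.09 with Mkl1, 1.88 and 1.93 on the arrays labelled Srf, 2.89 and 2.97 with shEGFP, 2.67 and 2.72 with shActb_1, and 3.11 and 3.12 with shActb_2. The arrays labelled Srf lay far below the other 10. Gins2 fell there by 1.17 (SE 0.06, adjusted p = 2.3e-05), a 2.25-fold decrease. It passed the threshold under all 13 alternative settings, between -1.20 and -1.13, although 1 of these, slide as a block, repeats the original fit. It also fell with shActb_1, by 0.24 (SE 0.06, adjusted p = 0.0477), and rose by 0.18 (SE 0.06, adjusted p = 0.0397) with shActb_2.

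Smaller decreases on the arrays labelled Srf were those of Cdc6 (-0.29, SE 0.06, adjusted p = 0.0156), which loads MCM onto origins, and Mcm4 (-0.25, SE 0.07, adjusted p = 0.0366), a subunit of that ring. Rrm2 (-0.21, adjusted p = 0.0364) and Rrm1 (-0.18, adjusted p = 0.0438), the subunits of ribonucleotide reductase that supplies deoxynucleotides, also fell. Gins1, another GINS subunit, differed by -0.25 (SE 0.10, adjusted p = 0.113), and passed without EGFP replicate 2 (-0.41, adjusted p = 0.00456) but not without replicate 1 (-0.085, adjusted p = 0.381). Mcm2 passed as higher there without EGFP replicate 2 (0.35, adjusted p = 0.00697), and without replicate 1 it stood at -0.057 (adjusted p = 0.541). No other gene of the helicase passed on the arrays labelled Srf with every array kept. Without EGFP replicate 1, Mcm5 stood there at -0.24, Mcm7 at -0.22 and Tyms, another replication gene, at -0.29. Mcm2, a subunit of the MCM ring, read 4.04 and 4.44 with EGFP, 4.56 and 4.57 with Mkl1, 4.38 and 4.39 on the arrays labelled Srf, 4.51 and 4.50 with shEGFP, 4.65 and 4.56 with shActb_1, and 4.25 and 4.23 with shActb_2. Its EGFP arrays lay apart by more than most of the differences between groups.

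With Mkl1, 0 of 14 replication genes passed the adjusted threshold of limma in either direction (2 were higher and 0 lower at an unadjusted p under 0.05), the list's median was 0.03 (-0.04 with quantile normalization), and the largest values were those of Mcm2 (0.32, SE 0.12, adjusted p = 0.0917) and Mcm3 (0.18, SE 0.06, adjusted p = 0.0715). Leaving out 1 EGFP array brought calls: without replicate 2, Mcm2 was higher by 0.53 (adjusted p = 0.00208) and Gins1 lower (-0.28, adjusted p = 0.019), and without replicate 1, Mcm3 was higher by 0.23 (adjusted p = 0.0349). With the other EGFP array left out instead, Mcm2 stood at 0.12 (adjusted p = 0.224), Gins1 at 0.05 (adjusted p = 0.636) and Mcm3 at 0.12 (adjusted p = 0.153). Pcna, the sliding clamp of DNA polymerase, read 6.44 and 6.37 with EGFP, 6.33 and 6.37 with Mkl1, 6.26 and 6.29 on the arrays labelled Srf, 6.35 and 6.42 with shEGFP, 6.42 and 6.42 with shActb_1, and 6.29 and 6.19 with shActb_2. All 12 values lay within a narrow band, and no comparison passed.

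With shActb_1, Gins2 was the 1 of 14 replication genes that passed, 0 rose in limma (1 at an unadjusted p under 0.05), and the list's median was 0.04 (-0.05 with quantile normalization). With shActb_2, 4 of the 14 were higher and 2 lower (28.6% and 14.3%, near the 28.1% and 16.3% of all genes). Rrm2 rose by 0.46 (SE 0.06, adjusted p = 0.00133), Gins1 by 0.46 (SE 0.10, adjusted p = 0.00958) and Rrm1 by 0.35 (SE 0.05, adjusted p = 0.00247). Tyms, thymidylate synthase, fell by 0.44 (SE 0.07, adjusted p = 0.00302), and Mcm3 fell by 0.20 (SE 0.06, adjusted p = 0.0313). The list's median was 0.06, which was -0.01 relative to all named genes, and with quantile normalization it was -0.19. Under that scaling Mcm6 passed as lower (-0.21) where it had stood at 0.09.

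Among the G1/S genes, Ccne1 (NM_007633) rose in all 4 comparisons, which share the EGFP arrays in one pair and the shEGFP arrays in the other. It read 4.49 and 4.69 with EGFP, 5.18 and 5.24 with Mkl1, 4.80 and 4.95 on the arrays labelled Srf, 4.11 and 4.12 with shEGFP, 4.99 and 4.96 with shActb_1, and 5.02 and 5.04 with shActb_2. Every treated array lay above every array of its control. The changes were 0.28 (SE 0.08, adjusted p = 0.0437) for Srf, 0.62 (SE 0.08, adjusted p = 0.0028) for Mkl1, 0.86 (SE 0.08, adjusted p = 0.00119) for shActb_1 and 0.91 (SE 0.08, adjusted p = 0.000311) for shActb_2. Without EGFP replicate 1 the change for Srf was 0.18 (adjusted p = 0.151). The other Ccne1 probe rose as well, by 0.39, 0.55, 0.81 and 0.68 in the same order. The shEGFP arrays themselves were lower than EGFP by -0.48 (SE 0.08, adjusted p = 0.0054), and against EGFP shActb_2 was higher by 0.43 (SE 0.08, adjusted p = 0.00673).

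The D-type cyclins D1 and D2 rose with Mkl1 and on the arrays labelled Srf. Ccnd1, cyclin D1, read 5.27 and 5.87 with EGFP, 6.41 and 6.59 with Mkl1, 6.13 and 6.18 on the arrays labelled Srf, 5.81 and 5.84 with shEGFP, 6.38 and 6.47 with shActb_1, and 6.18 and 6.23 with shActb_2. All treated arrays were above their controls, although the EGFP duplicates differed from each other by as much as several of the changes. Ccnd1 rose by 0.59 (SE 0.17, adjusted p = 0.0431) on the arrays labelled Srf and by 0.93 (SE 0.17, adjusted p = 0.01) with Mkl1, and differed by 0.61 (SE 0.17, adjusted p = 0.0747) with shActb_1 and 0.38 (SE 0.17, adjusted p = 0.116) with shActb_2. On the arrays labelled Srf the change was 0.28 (adjusted p = 0.0696) without EGFP replicate 1 and 0.89 without EGFP replicate 2, and the call was also lost without either array labelled Srf (adjusted p = 0.125 and 0.175).

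Ccnd2, cyclin D2, read 5.18 and 5.41 with EGFP, 5.70 and 5.75 with Mkl1, 5.76 and 5.82 on the arrays labelled Srf, 5.13 and 5.19 with shEGFP, 5.49 and 5.50 with shActb_1, and 5.54 and 5.64 with shActb_2. It was higher on every treated array than on its control arrays. Ccnd2 rose by 0.49 (SE 0.08, adjusted p = 0.00507) on the arrays labelled Srf, by 0.43 (SE 0.08, adjusted p = 0.0121) with Mkl1 and by 0.43 (SE 0.08, adjusted p = 0.006) with shActb_2. With shActb_1 the difference was 0.33 (SE 0.08, adjusted p = 0.051). Ccnd3 (cyclin D3) rose by 0.39 (SE 0.05, adjusted p = 0.00265) with Mkl1 and fell by 0.30 (SE 0.05, adjusted p = 0.0134) with shActb_1.

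Of the kinases that partner these cyclins, Cdk2 passed in 1 comparison and Cdk4 and Cdk6 in none by their brightest probes. Cdk2, the partner of cyclin E, read 0.63 and 0.67 on the arrays labelled Srf and 0.96 on EGFP replicate 2, while its spot on EGFP replicate 1 carried an outlier flag and was left out. The difference of -0.31 (SE 0.08, adjusted p = 0.0275) therefore rests on 1 control array, assumed to vary like the other groups, and it did not pass without either array labelled Srf (adjusted p = 0.112 and 0.091). In the deposited log2 table, which keeps the flagged spot, it was -2.68 (adjusted p = 0.154). E2f1, which switches on replication genes, read 3.15 and 3.14 with EGFP, 3.07 and 3.09 with Mkl1, 3.00 and 2.97 on the arrays labelled Srf, 3.04 and 2.99 with shEGFP, 2.91 and 2.99 with shActb_1, and 3.26 and 3.24 with shActb_2. It rose by 0.24 (SE 0.05, adjusted p = 0.0108) with shActb_2, and on the arrays labelled Srf it differed by -0.17 (SE 0.05, adjusted p = 0.0568). Cdk6 differed by 0.78 (SE 0.26, adjusted p = 0.0707) with Mkl1, and without EGFP replicate 2 it passed for Mkl1 (1.19, adjusted p = 0.00715) and for Srf (0.94, adjusted p = 0.0149), while without EGFP replicate 1 it differed by 0.38 (adjusted p = 0.26) and 0.13 (adjusted p = 0.68).

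**Figure D2:**
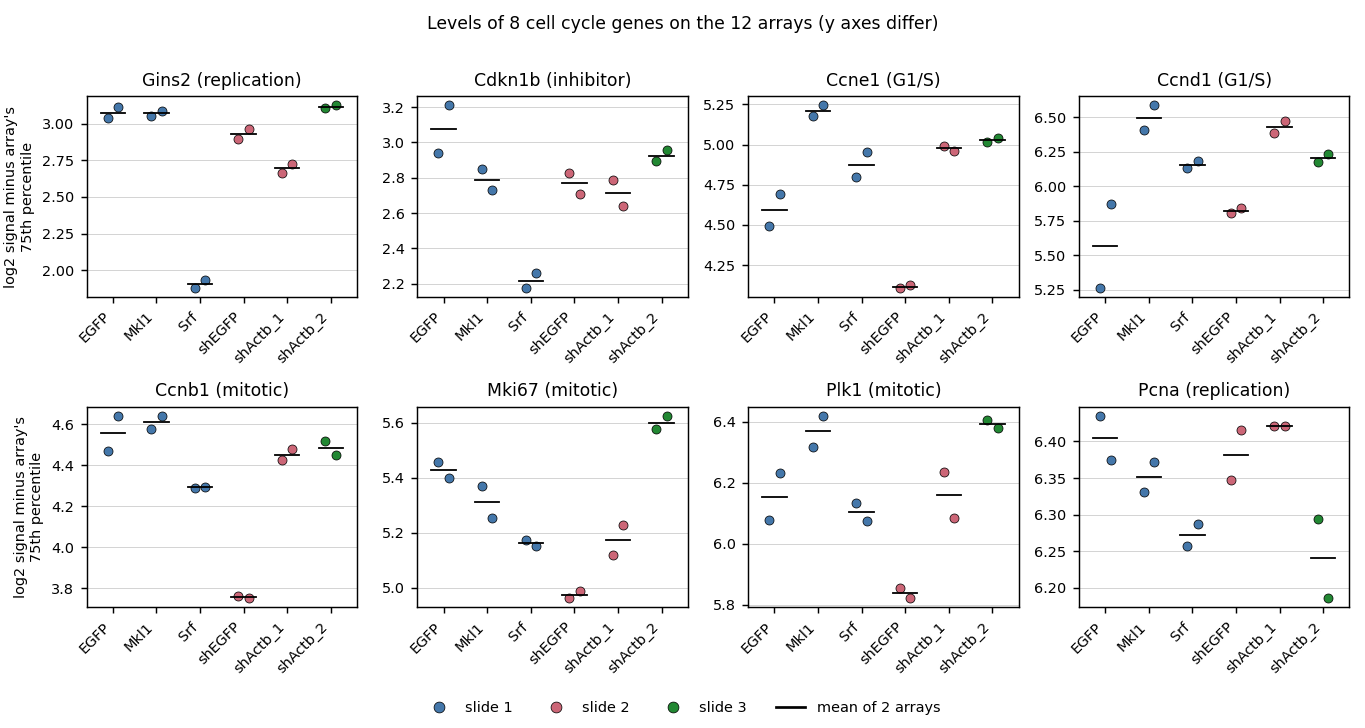
Log2 level (y axis, signal relative to the array's 75th percentile, with a separate scale per gene) of 8 members on the 2 arrays of each group, coloured by slide, with bars at the group mean. Gins2 and Cdkn1b are lowest on the arrays labelled Srf, and Ccne1, Ccnb1, Mki67 and Plk1 are lowest with shEGFP.

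Of the mitotic genes, more fell than rose on the arrays labelled Srf, and most rose with shActb_2 against shEGFP. On the arrays labelled Srf, 6 of 19 fell and 0 rose in limma (8 and 0 at an unadjusted p under 0.05), the 6 being 31.6% beside 16.5% of all genes, 17 of 19 had a negative change, and the median was -0.17. With Mkl1, 3 of 19 rose (15.8%, near the 17.7% of all genes) and 0 fell in limma (6 and 1 at an unadjusted p under 0.05), with a median of 0.08 that was -0.01 with quantile normalization. With shActb_1, 2 of 20 rose (10%, near the 7.78% of all genes) and 0 fell in limma (12 and 0 at an unadjusted p under 0.05), 17 of 20 were positive, and the median was 0.21 (0.11 with quantile normalization, and -0.07 against EGFP in place of shEGFP). With shActb_2, 15 of 20 rose (75%, beside 28.1% of all genes) and 1 fell, and the median was 0.40, or 0.22 with quantile normalization. Against EGFP in place of shEGFP, 6 of 20 were higher and 2 lower with shActb_2, beside 22.6% and 19.5% of all genes, with a median of 0.17. One of the 6 was Aurkb, which entered the test only through shActb_2 and so had to be higher.

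The genes that fell most on the arrays labelled Srf were Bub1b (-0.38, SE 0.07, adjusted p = 0.00763), a kinase-like protein of the spindle checkpoint, and Ccnb2 (-0.31, SE 0.07, adjusted p = 0.0186), cyclin B2. Mki67 (NM_001081117), the proliferation marker Ki-67 that coats mitotic chromosomes, read 5.46 and 5.40 with EGFP, 5.37 and 5.25 with Mkl1, 5.18 and 5.15 on the arrays labelled Srf, 4.96 and 4.99 with shEGFP, 5.12 and 5.23 with shActb_1, and 5.58 and 5.63 with shActb_2. The arrays labelled Srf were below both EGFP arrays and the shActb_2 arrays above both shEGFP arrays. Mki67 fell by 0.27 (SE 0.07, adjusted p = 0.0238) on the former and rose by 0.63 (SE 0.07, adjusted p = 0.000548) on the latter.

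Ccnb1, cyclin B1, whose complex with Cdk1 starts mitosis, read 4.47 and 4.64 with EGFP, 4.58 and 4.64 with Mkl1, 4.29 and 4.30 on the arrays labelled Srf, 3.76 and 3.75 with shEGFP, 4.43 and 4.48 with shActb_1, and 4.52 and 4.45 with shActb_2. The shEGFP arrays stood below all other arrays on this probe, the brightest of 3, but on another the arrays labelled Srf (1.89 and 1.91) were lower than shEGFP (2.0 and 2.10). Ccnb1 fell by 0.26 (SE 0.07, adjusted p = 0.0301) on the arrays labelled Srf, and rose by 0.69 (SE 0.07, adjusted p = 0.00148) with shActb_1 and by 0.73 (SE 0.07, adjusted p = 0.00039) with shActb_2. The other probes fell on the arrays labelled Srf and rose with shActb_2 as well, but with shActb_1 they differed by 0.25 (adjusted p = 0.0767) and 0.28 (adjusted p = 0.182). The probes also disagreed on shActb_2 against EGFP, where the brightest differed by -0.07 (SE 0.07, adjusted p = 0.433) and the others were higher by 0.46 (SE 0.07, adjusted p = 0.00315) and 0.38 (SE 0.11, adjusted p = 0.0269).

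Plk1, a kinase needed for spindle assembly and mitotic exit, whose promoter with its CHR is shown above, read 6.08 and 6.23 with EGFP, 6.32 and 6.42 with Mkl1, 6.13 and 6.07 on the arrays labelled Srf, 5.86 and 5.82 with shEGFP, 6.24 and 6.08 with shActb_1, and 6.40 and 6.38 with shActb_2. It rose by 0.32 (SE 0.08, adjusted p = 0.0489) with shActb_1 and by 0.55 (SE 0.08, adjusted p = 0.00176) with shActb_2. Of the members, Ccne1, Ccnb1 and Plk1 rose with both hairpins against shEGFP. With shActb_1, Plk1 ranged from 0.20 to 0.40 over 13 alternative settings and passed in 5. Against EGFP in place of shEGFP, Plk1 differed by 0.005 (SE 0.08, adjusted p = 0.965 in limma) with shActb_1. The other large increases with shActb_2 were those of Ect2, an exchange factor that starts cytokinesis (0.66, SE 0.09, adjusted p = 0.00167), and Cdc20 (0.60, SE 0.09, adjusted p = 0.00236), which activates the anaphase-promoting complex and whose window held a CHR.

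Top2a, the topoisomerase that untangles chromosomes, read 4.22 and 4.42 with EGFP, 4.33 and 4.36 with Mkl1, 4.23 and 4.26 on the arrays labelled Srf, 4.11 and 4.12 with shEGFP, 4.37 and 4.30 with shActb_1, and 4.45 and 4.45 with shActb_2. It rose with shActb_2 (0.34, SE 0.07, adjusted p = 0.00872) and passed in no other of the 4 comparisons. With Mkl1 the genes that rose were Aurka (0.33, SE 0.09, adjusted p = 0.0439), a kinase of the spindle poles, Anln (0.33, SE 0.07, adjusted p = 0.0185), the actin-binding protein anillin of the cleavage furrow, and Birc5 (0.22, SE 0.06, adjusted p = 0.0282), survivin of the chromosomal passenger complex. Without EGFP replicate 1 the change of Aurka with Mkl1 was 0.18. Without EGFP replicate 2, Ccna2 stood at 0.28, Plk1 at 0.29, Cdc20 at 0.34 and Kif20a at -0.31 with Mkl1.

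The knockdown control was itself low in mitotic messages. Against EGFP, shEGFP had 4 members higher and 15 lower of 47, beside 14% of all genes higher and 22.8% lower. The 4 include Aurkb and Ccne2, which were not well above background with EGFP and entered the test only through shEGFP, so they had to be higher. Among those lower were 11 of 20 mitotic genes, with a list median of -0.21. Ccnb1 was lower by -0.80 (SE 0.07, adjusted p = 0.000481) and Mki67 by -0.45 (SE 0.07, adjusted p = 0.00292). The vectors and slides of these controls also differ, so vector, slide and hairpin cannot be told apart. With EGFP in place of shEGFP as the control, a choice made after the data were seen, shActb_2 had 9 members higher and 4 lower, beside 22.6% and 19.5% of all genes, and 6 of 20 mitotic genes were higher and 2 lower, with a median of 0.17. One of the 9 (and of the 6) was Aurkb, which entered only through shActb_2. With shActb_1, 8 members were higher and 10 lower than with EGFP, beside 18.8% and 24.7% of all genes. The 8 again include Aurkb and Ccne2, and 2 mitotic genes were higher and 4 lower. With shActb_2, the genes higher against both controls were Aurka, Bub1, Ccnd2, Ccne1, Kif23, Plk1 and Ttk, and Tyms was lower against both. With shActb_1, Ccne1 was higher and Ccnd3 and Gins2 were lower against both.

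**Figure D3:**
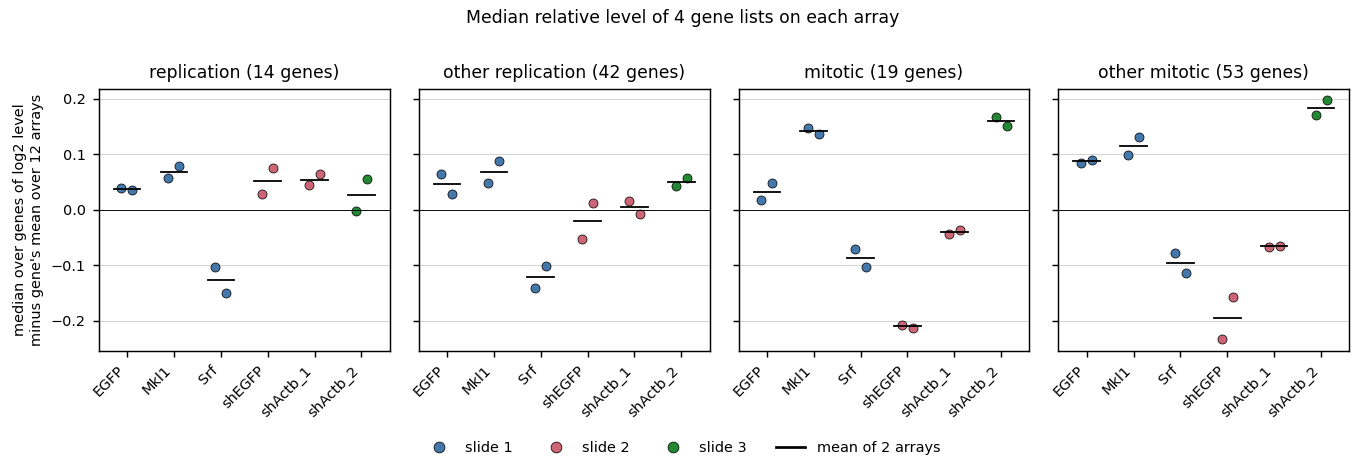
Median over the genes of a list of the log2 level minus the gene's mean over the 12 arrays (y axis), for each array, coloured by slide, with bars at the mean of 2 arrays. The mitotic list (19 genes measured on all arrays) is lowest with shEGFP (both arrays at -0.21) and highest with shActb_2 (0.17 and 0.15), and both replication lists are lowest on the arrays labelled Srf.

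The same per-array medians show the groups without choosing a control. For the 19 mitotic genes measured on all arrays they were 0.02 and 0.05 with EGFP, 0.15 and 0.14 with Mkl1, -0.07 and -0.10 on the arrays labelled Srf, -0.21 and -0.21 with shEGFP, -0.04 and -0.04 with shActb_1, and 0.17 and 0.15 with shActb_2. The 14 replication genes read -0.10 and -0.15 on the arrays labelled Srf and between -0.00 and 0.08 on the other 10 arrays.

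Aurkb, Ccne2 and 1 of 3 Cdk1 probes followed the slide. Aurkb, the kinase of the chromosomal passenger complex, read -4.67 and -4.95 with EGFP, -4.71 and -5.59 with Mkl1, -5.05 and -5.43 on the arrays labelled Srf, -1.26 and -1.15 with shEGFP, -1.02 and -0.89 with shActb_1, and -3.46 and -3.49 with shActb_2. The 4 arrays of slide 2 were far above the other 8, and the probe was well above background on 7 arrays. The fall of 2.27 (SE 0.26, adjusted p = 0.000746) in shActb_2 against shEGFP sets slide 3 against slide 2, so that hairpin and slide cannot be told apart, and the probe was not well above background on either EGFP array.

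Ccne2, cyclin E2, read -7.32 and -7.39 with EGFP, -7.75 and -7.68 with Mkl1, -6.94 and -7.65 on the arrays labelled Srf, -3.57 and -3.64 with shEGFP, -3.19 and -3.00 with shActb_1, and -6.50 and -6.82 with shActb_2. It was well above background on the 4 arrays of slide 2 alone, and shActb_2 was at least 5.57-fold lower than shEGFP (adjusted p = 0.000125), a bound set by the background on its arrays. Ccne2 entered the test only through the arrays on which it was high, so it had to differ. The brightest Cdk1 probe, for the kinase that drives mitosis, read 3.92 and 3.84 with EGFP, 3.86 and 3.86 with Mkl1, 3.73 and 3.66 on the arrays labelled Srf, 4.09 and 4.12 with shEGFP, 4.16 and 4.19 with shActb_1, and 4.05 and 3.93 with shActb_2, and passed in none of the 4 comparisons. A dim Cdk1 probe ranged from 0.46 to 0.79 on slide 2 and from -3.68 to -1.95 elsewhere, and the other dim one showed no such gap. Over all probes above background on at least 1 array, 151 of 45767 (0.33%) were over 2-fold higher on every array of slide 2 than on every other array and 11 were lower; among the members' probes these were 3 of 64 and 0.

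**Figure D4:**
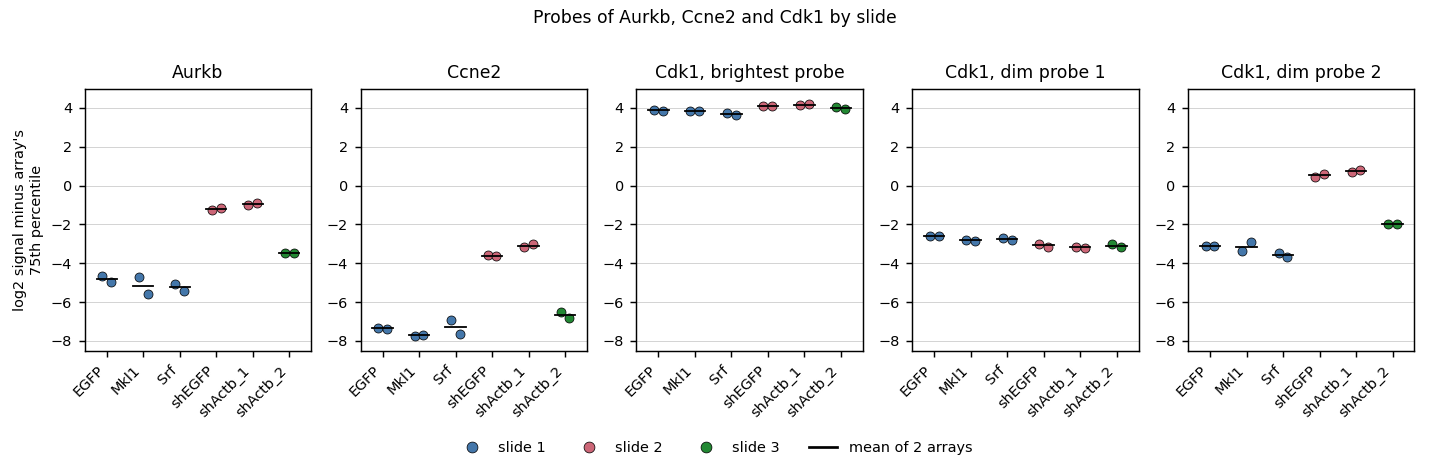
Log2 level (y axis, relative to the array's 75th percentile) of the Aurkb and Ccne2 probes and the 3 Cdk1 probes on the 2 arrays of each group, coloured by slide, with bars at the mean. Aurkb, Ccne2 and the second dim Cdk1 probe are high on all 4 arrays of slide 2, and the other Cdk1 probes show no such gap.

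Of 4 inhibitor genes tested, 3 fell on the arrays labelled Srf, beside 16.5% of all genes. Cdkn1b, which encodes p27 and holds cyclin E and Cdk2 inactive, read 2.94 and 3.21 with EGFP, 2.85 and 2.73 with Mkl1, 2.18 and 2.26 on the arrays labelled Srf, 2.83 and 2.71 with shEGFP, 2.79 and 2.64 with shActb_1, and 2.90 and 2.96 with shActb_2. The arrays labelled Srf were below all 10 others. Cdkn1b fell there by 0.86 (SE 0.10, adjusted p = 0.00109) and passed under 12 of 13 alternative settings, 1 of which, slide as a block, repeats the original fit. Cdkn2b (p15), an inhibitor of Cdk4 and Cdk6, fell by 0.64 (SE 0.10, adjusted p = 0.00328) on those arrays, by 0.50 (SE 0.10, adjusted p = 0.0136) with Mkl1 and by 0.36 (SE 0.10, adjusted p = 0.0242) with shActb_2. Cdkn2a, the locus of p16 and p19, fell by 0.32 (SE 0.09, adjusted p = 0.0349) on the arrays labelled Srf.

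Cdkn1a, the p53 target p21, read 0.89 and 1.77 with EGFP, 1.85 and 2.0 with Mkl1, 2.0 and 2.33 on the arrays labelled Srf, 1.29 and 1.48 with shEGFP, 1.99 and 2.14 with shActb_1, and 1.73 and 1.96 with shActb_2. Every treated array was above its control arrays, but the EGFP duplicates were far apart. The differences were 0.83 (SE 0.26, adjusted p = 0.0552), 0.59 (SE 0.26, adjusted p = 0.155), 0.68 (SE 0.26, adjusted p = 0.174) and 0.46 (SE 0.26, adjusted p = 0.203) for Srf, Mkl1, shActb_1 and shActb_2, and none passed. Without EGFP replicate 2, Cdkn1a passed for Srf (1.27, adjusted p = 0.00339) and for Mkl1 (1.03, adjusted p = 0.00742), while without replicate 1 it differed by 0.39 and 0.15 and passed in neither.

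The treatments were also set against each other. Between the arrays labelled Srf and Mkl1, which share slide 1, 20 of 45 members were lower on the former and 0 higher in limma (0 also at an unadjusted p under 0.05). All genes gave 20% lower and 14.4% higher, and the members 44.4% lower. The 20 comprised 10 of 19 mitotic and 6 of 14 replication genes, and the median over the members was -0.23 against -0.05 for all genes. With quantile normalization 10 members changed, with no filter on dim probes 9, and on the compared arrays only 10. Gins2 differed by -1.17 (SE 0.06, adjusted p = 1.76e-05), Cdkn1b by -0.57 (SE 0.10, adjusted p = 0.00639), Anln by -0.48 (SE 0.07, adjusted p = 0.00251) and Ccnd3 by -0.44 (SE 0.05, adjusted p = 0.000888). Leaving out 1 array of either group left 7 to 10 changed.

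Between the hairpins, 17 of 47 members changed, 11 higher and 6 lower with shActb_2 than with shActb_1 (23.4% and 12.8%, near the 20.9% and 12.4% of all genes). Ttk (0.48, SE 0.07, adjusted p = 0.003), a kinase of the spindle checkpoint, Ect2 (0.43, SE 0.09, adjusted p = 0.0122) and Mki67 (0.43, SE 0.07, adjusted p = 0.00346) were higher with shActb_2. Tyms was lower by -0.34 (SE 0.07, adjusted p = 0.0117). The hairpins target the same message, but they lie on different slides, and 8 to 10 members changed when 1 array was left out.

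The other genes of the pathway were taken from 4 further lists. Of 42 other replication genes, 2 rose and 18 fell on the arrays labelled Srf (median -0.19), and of 53 other mitotic genes 2 rose and 17 fell (median -0.17). Those that fell were 42.9% and 32.1%, beside 16.5% of all genes. With shActb_2, 41 of 53 other mitotic genes rose and 1 fell (median 0.36), and 10 of 42 other replication genes rose and 2 fell (median 0.07). Beside the 28.1% of all genes that rose, the first share was 77.4% and the second, at 23.8%, was lower. With shActb_1, 7 of 53 other mitotic genes rose and 0 fell in limma (19 and 2 at an unadjusted p under 0.05), 49 of 53 were positive, and the share that rose was 13.2% beside 7.78%. With Mkl1, 6 of 53 mitotic genes rose and 3 fell, and 3 of 42 replication genes rose and 1 fell, all below the 17.7% and 11.3% of all genes. Against EGFP, 31 of 53 other mitotic genes were lower with shEGFP (58.5%, beside 22.8% of all genes) and 0 higher in limma (35 and 0 at an unadjusted p under 0.05).

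Among genes of E2F, retinoblastoma and the MuvB complex, 3 of 20 rose and 1 fell on the arrays labelled Srf, 9 of 19 rose and 1 fell with Mkl1, 3 of 19 rose with shActb_1, and 8 of 19 rose and 1 fell with shActb_2. The shares that rose were 15%, 47.4%, 15.8% and 42.1%, beside 17.4%, 17.7%, 7.78% and 28.1% of all genes. Of 23 p53 targets and other brakes on the cycle, 6 rose and 5 fell, 7 rose and 5 fell, 6 rose and 1 fell, and 7 rose and 6 fell in the same order. Here the shares that rose were 26.1%, 30.4%, 26.1% and 30.4%, the last near that of all genes, and those that fell were 21.7%, 21.7%, 4.35% and 26.1%, beside 16.5%, 11.3%, 6.18% and 16.3%.

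The largest changes of these lists were the following. On the arrays labelled Srf, Mycn, a growth-promoting transcription factor, was at least 13.7-fold higher than with EGFP, where it was not well above background. It entered the test only through the arrays labelled Srf and so had to be higher there, and it is 1 of the 3 of 20 counted above. Gadd45g (0.97) and Gadd45a (0.81), stress-induced growth-arrest genes, rose. Prim2 (-0.89), a primase subunit, Mcm8 (-0.81), a helicase of DNA repair, and Pole2 (-0.69), a subunit of DNA polymerase epsilon, fell. With Mkl1, E2f4 (0.96), a repressive E2F, Pmaip1 (0.88), a pro-apoptotic p53 target, and Gadd45g (0.77) rose, and Trp53inp1 (-1.07), Gadd45b (-0.97) and Bbc3 (-0.69), the pro-apoptotic Puma, fell.

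With shActb_1, Gadd45a (0.77), Gadd45g (0.77) and E2f8 (0.58), a repressive E2F, rose, and Sesn1 (-0.33), a stress-responsive p53 target, fell. With shActb_2, Nek2 (1.09), a kinase that separates centrosomes, Cenpf (0.98), a kinetochore protein, and Orc2 (0.92), a subunit of the origin recognition complex, rose. Wee1 (-0.82), the kinase that inhibits Cdk1, Btg2 (-0.60), an antiproliferative gene, and Ccng1 (-0.60), a p53 target, fell.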

How the data were processed

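The authors labelled RNA with cyanine 3, hybridized it to 1-colour Agilent arrays of 62976 features and read the scans with Agilent's Feature Extraction software (version 11.5.1.1, per the file headers). They deposited a background-subtracted processed signal intensity for each spot, not normalized between arrays, and a table of log2 values that differ from log2 of that signal by a constant per array. Spots with a control type or an outlier flag were left out here, replicate spots were averaged on the log2 scale, and each array was centred on its 75th percentile, as in the percentile shift of the study's methods. Probes were named through their accession and RefSeq (GRCm38.p6), which matched 28026 of 55681.

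All 12 arrays were fitted with limma 3.58.1 (lmFit, eBayes) in R 4.3.3, with 1 mean per group. A probe entered a comparison if all arrays of 1 or both of its groups read it well above background, and p-values were adjusted over all of these (35430 to 37690 probes). A gene changed at an adjusted p under 0.05, two-sided. A probe dim on every array of a group gives only a bound, taken against the lowest signal well above background. The number of arrays limits the precision. The script was tested on simulated data.

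The members and lists were chosen with earlier results of these data known. Any member may be named. Values on every array were given for members past a 2-fold change and for Mki67, Top2a, Pcna, Mcm2, Cdk1, Ccnb1, Aurkb, Plk1, E2f1, Ccne1, Ccnd1, Ccnd2, Cdkn1a and Cdkn1b, and the 3 largest increases and decreases per list and comparison were named, as were those over the 4 further lists together. Alternatives were normexp (offset 50, on the median spot signal), quantile normalization, the log2 table, other filters on dim probes, the compared arrays only, replicate and slide as a block, a variance trend with robust estimation, every probe, a 2-fold threshold and each array left out. Slide as a block gave each group its own mean again and so repeated the original fit. The comparisons of shEGFP, shActb_1 and shActb_2 with EGFP were added after the data were seen.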

Additional observations from a re-analysis of the deposited data

Results flagged for a closer look

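In the direct test of the arrays labelled Srf against those labelled Mkl1, 20 members were lower (44.4% of those tested, beside 20% of all genes). Those that differed by over 0.4 on the log2 scale were Gins2 (-1.17), Cdkn1b (-0.57), Anln (-0.48) and Ccnd3 (-0.44), each lower on the arrays labelled Srf. With quantile normalization 10 members changed in this test, and with no filter on dim probes 9.

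In the direct test of shActb_2 against shActb_1, 17 members changed, 23.4% of those tested being higher and 12.8% lower, near the 20.9% and 12.4% of all genes. Higher with shActb_2 were Ttk (0.48), Ect2 (0.43), Mki67 (0.43), Gins2 (0.42), Gins1 (0.41) and Ccnd3 (0.40). Lower with shActb_2 were Aurkb (-2.52) and Ccne2, by at least 7.93-fold, whose probes were high on all 4 arrays of slide 2. Ccne2 was not well above background with shActb_2 and entered the test only through shActb_1. The hairpins lie on different slides, and slide and hairpin cannot be told apart.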

How the results depend on the processing

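Fitted on the compared arrays only, 0 members rose and 1 fell for Srf (limma, adjusted p), 0 and 0 for Mkl1, 0 fell with shActb_1, and 10 differed between Srf and Mkl1. With no filter on dim probes, 1 rose and 4 fell for Srf, 4 rose for Mkl1, 0 fell with shActb_1, 3 fell with shActb_2, and 9 differed between Srf and Mkl1. Quantile normalization gave 4 higher and 4 lower for Mkl1, 13 higher and 11 lower for shActb_2, and 10 between Srf and Mkl1, and turned Mcm6 with shActb_2 to -0.21 (adjusted p = 0.0366). A trend with robust estimation gave 13 higher and 4 lower for Mkl1, 14 higher for shActb_1, 8 lower for shActb_2 and 26 between the hairpins. With probes required on all arrays, 6 rose for shActb_1, and with normexp 5. Counting every probe gave 11 higher and 2 lower for Mkl1. A 2-fold threshold left 0 and 1 for Srf, 0 and 0 for Mkl1, 0 and 0 for shActb_1, 0 and 2 for shActb_2, 1 between Srf and Mkl1 and 2 between the hairpins. With EGFP in place of shEGFP, 9 rose with shActb_2, and 8 rose and 10 fell with shActb_1. The share of all genes called was computed for the original fits and for EGFP as the control, not for the other settings. The counts therefore do not show whether all genes moved as well. The cause was not tested, except that fewer arrays leave fewer degrees of freedom.

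With 1 array left out, 1 to 7 members rose and 3 to 13 fell for Srf, 2 to 12 rose and 0 to 3 fell for Mkl1, 2 rose and 0 to 1 fell for shActb_1, 15 to 19 rose and 3 fell for shActb_2, 7 to 10 differed between Srf and Mkl1 and 8 to 10 between the hairpins. Every called member that could be tested kept its direction. Cdk2 could not be tested for Srf without EGFP replicate 2, as its other EGFP spot was flagged. A lone array was assumed to vary like the other groups.

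The replicate numbers were checked for pairing, and with 2 numbers per group nothing in the labels makes them pairs. Correlations of same-numbered deviations ranged from -0.00 to 0.26. With the replicate number as a block, 4 rose and 13 fell for Srf, 6 and 1 for Mkl1, 3 and 2 for shActb_1, 22 and 5 for shActb_2, 18 differed between Srf and Mkl1 and 14 between the hairpins. Slide as a block could not be fitted for shActb_2, which is alone on its slide. Elsewhere it repeated the original fit and had to give the same calls.

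The medians of the lists moved as well. With quantile normalization the replication and mitotic medians were -0.15 and -0.13 for Srf, -0.039 and -0.0055 for Mkl1, -0.055 and 0.11 for shActb_1, and -0.19 and 0.22 for shActb_2. With normexp they were -0.16 and -0.12 for Srf. With no filter on dim probes the mitotic median for Mkl1 was 0.068, and with every probe counted the replication median for shActb_2 was 0.031. With EGFP in place of shEGFP the medians were 0.0029 and -0.069 for shActb_1 and 0.012 and 0.17 for shActb_2. With 1 array left out, the replication median ranged from -0.21 to -0.16 for Srf, 0.020 to 0.056 for Mkl1, 0.018 to 0.066 for shActb_1 and 0.011 to 0.074 for shActb_2, and the mitotic median from -0.18 to -0.15, 0.091 to 0.12, 0.17 to 0.22 and 0.35 to 0.43 in the same order.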
